A study of Mus musculus with 16 samples.

Results

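The livers described here came from 8 C57BL/6 males. Of these, 4 were wild-type and 4 bore the label of an adipocyte knockout of Trib1, called knockout-labelled below. Their 8 liver libraries were chosen by sample title from the 16 libraries of the series, and the other 8 libraries are adipocytes of the same mice. The wild-type mice were WT-1135, WT-1136 and WT-1138 at 76 days of age and WT-1153 at 70 days. The knockout-labelled mice were KO-1137 and KO-1139 at 76 days and KO-1151 and KO-1152 at 70 days. Values per mouse are given below in these orders. The driver of the deletion and the deleted part of Trib1 are not given in the labels, and no treatment is named. The tissue label is liver, whereas the series text speaks of hepatocytes. The question for the liver is which of its genes differ with a genotype that targets another tissue.

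Trib1 encodes tribbles 1, a pseudokinase that brings the ubiquitin ligase COP1 to the transcription factor C/EBP-alpha, which is then degraded. In liver, C/EBP-alpha drives many metabolic genes, and Trib1 in hepatocytes is known for its effect on lipid synthesis and plasma lipids. Fat tissue can reach the liver through hormones such as adiponectin, which acts on the receptors encoded by Adipor1 and Adipor2, and through the fatty acids and glycerol that it releases. Liver in turn makes bile acids, lipoproteins and most plasma proteins, among them the kininogens described below.

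Total counts were 28560887 to 48961818 per liver library, and 15279 to 15924 of 23420 genes had counts in a library. All 3 libraries of 70-day mice (1 wild-type and 2 knockout-labelled) held 46247411 to 48961818 counts and the 5 of 76-day mice 28560887 to 35616678, so age and depth cannot be told apart. Albumin and apolipoprotein A1 were abundant in every library, with Alb at 78346 ± 9999 CPM (counts scaled by library total and TMM factor; SD, n = 4) in wild-type and 78621 ± 9989 in knockout-labelled livers. Defining genes of other liver cells were also present, such as the endothelial Stab2 at 40.2 ± 6.82 and the Kupffer cell gene Clec4f at 62.7 ± 13.9 CPM in wild-type livers, as in whole liver. The 15 hepatocyte markers summed to between 126807 and 158046 CPM in wild-type and between 129772 and 157728 in knockout-labelled livers. On the first principal component of the liver libraries, which held 25.9% of the variance, WT-1135 and WT-1136 stood apart at -30.3 and -31.4, and the other 6 libraries lay between 2.60 and 24.9. In bulk liver, fewer cells of a type and less RNA per cell cannot be told apart. Whether samples of a group are separate mice is given by the mouse numbers, so the SD is the spread between animals.

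Trib1 itself did not separate the labels in liver. Its level was 58.8, 56.6, 51.4 and 72.3 CPM in wild-type and 78.8, 41.7, 66.4 and 72.9 CPM in knockout-labelled livers. The groups overlapped over most of their range, and the log2 change, knockout-labelled minus wild-type, was 0.12 ± 0.18 (SE; edgeR adjusted p = 0.875). Hepatocytes are not the targeted cells, so this gene checks no label here. In adipocytes of the same mice the log2 change of Trib1 was 0.28 ± 0.18 (edgeR adjusted p = 0.241), with no call in either direction.

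The liver transcriptome differed little between the genotype labels. Of 13288 genes tested, 3 passed an adjusted p under 0.05 in edgeR's quasi-likelihood test (0.0226%), all 3 higher in the knockout-labelled livers and 0 lower (0%). They were Zfp949, Kng2 and Kng1. The median log2 change over all tested genes was 8.14e-05, the median SE was 0.14, and 12697 genes changed by less than 1.5-fold. In adipocytes of the same mice, tested in the same way, 4849 of 13795 genes passed (35.2%). At an unadjusted p under 0.05, a looser mark that carries no call, 1146 liver genes passed (8.62%), of which 534 were higher (4.02%) and 612 lower (4.61%). The 4 knockout-labelled values lay wholly on 1 side of the 4 wild-type values for 619 genes (4.66%), above them for 313 (2.36%) and below for 306 (2.3%). DESeq2 on the same counts called 102 genes, 55 higher and 47 lower. Its 102 genes included all 3 of edgeR's, all had an edgeR unadjusted p of 0.00543 or less with the same sign, and 93 had groups that did not overlap. Which of these tests describes 4 against 4 mice better was not tested.

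**Figure D1:**
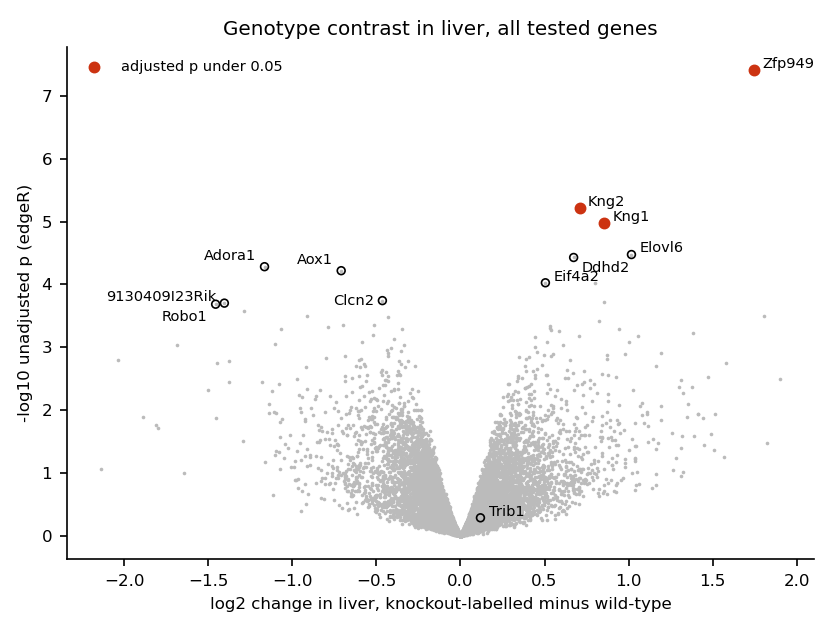
Each point is 1 of 13288 genes tested in liver, with the log2 change (knockout-labelled minus wild-type) on the x axis and -log10 of edgeR's unadjusted p on the y axis. Filled red points are the 3 genes with an adjusted p under 0.05, Zfp949, Kng2 and Kng1, and open circles are other genes described in the text, Trib1 near 0 among them.

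Zfp949, a gene for a zinc finger protein on chromosome 9 (GRCm38 chr9:88548020-88571061, plus strand), showed the smallest p of all. Wild-type livers held 6.48, 7.70, 9.51 and 7.55 CPM and knockout-labelled livers 25.0, 30.3, 25.9 and 23.7 CPM. Every knockout-labelled value exceeded the highest wild-type value by more than 2-fold, and this held at both ages. The gene rose 3.36-fold (95% interval 2.76 to 4.08), a log2 change of 1.75 ± 0.13 with edgeR adjusted p = 0.000519. In adipocytes of the same mice its log2 change was 1.59 ± 0.16 (edgeR adjusted p = 0.0002), and the difference between the tissues was 0.13 ± 0.21 (adjusted p = 0.701), so no tissue difference was detected. Among its 11 tested neighbours within 1000 kb, itself included, it alone was called and the median log2 change was 0.02. The unadjusted mark was passed by 3 of the 11 (8.62% of all tested genes), which were Zfp949, Nt5e at -0.41 ± 0.15 and 9330159M07Rik at -0.92 ± 0.32. The adjacent Syncrip and Snhg5 stood at 0.17 ± 0.08 and 0.05 ± 0.18. With only the 5 mice of 76 days the log2 change was 1.81, with an edgeR adjusted p of 0.0501.

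The other 2 called genes lie side by side on chromosome 16 and both encode kininogens, plasma proteins made by hepatocytes that release the vasoactive peptide bradykinin and take part in the contact system of coagulation. Kng2 (GRCm38 chr16:22985854-23029482, minus strand) stood at 271, 308, 286 and 276 CPM in wild-type and 423, 495, 458 and 488 CPM in knockout-labelled livers. It rose 1.63-fold (95% interval 1.43 to 1.87), a log2 change of 0.71 ± 0.09 with edgeR adjusted p = 0.04. Kng1 (chr16:23057865-23082078, plus strand) stood at 2454, 3130, 2676 and 2937 CPM in wild-type and 4681, 5304, 5157 and 5102 CPM in knockout-labelled livers. It rose 1.81-fold (1.53 to 2.14), a log2 change of 0.85 ± 0.11 with edgeR adjusted p = 0.0469. For both genes the groups were well apart, and Kng1 was the more abundant of the pair in every library in CPM, which are not scaled by length. Of the distinct 75-base stretches in their annotated transcripts, 9.77% of those of Kng1 and 10.8% of those of Kng2 occur in both, so reads from the shared part could be split between them by the authors' counting.

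Both kininogen calls stood close to the threshold. Leaving out any single library other than that of mouse WT-1136 took both above it, with edgeR adjusted p from 0.0688 to 0.193, while the log2 changes stayed between 0.68 and 0.75 for Kng2 and between 0.80 and 0.91 for Kng1. With age as a covariate the adjusted p were 0.0674 for Kng2 and 0.084 for Kng1, with log2 changes of 0.71 and 0.84. In the fit of all 16 libraries they were 0.156 for Kng2 and 0.637 for Kng1, and in 76-day mice alone 0.637 for both, with log2 changes from 0.67 to 0.86. Of the 3 called genes only Zfp949 was called in the fits with age as a covariate and of all 16 libraries.

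In adipocytes Kng2 was at 0.464, 0.0969, 0.414 and 0.439 CPM in wild-type and 13.7, 13.96, 13.1 and 14.1 CPM in knockout-labelled libraries. Its log2 change there was 5.26 ± 0.32, and the change in liver was smaller by 4.57 ± 0.25 on the log2 scale (edgeR adjusted p = 1.24e-08, a test that called 2845 of 14898 genes, 19.1%). In absolute level the liver was higher in both groups.

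The kininogen genes neighbour Adipoq, the gene for adiponectin, and the region was followed gene by gene. Within 1000 kb of the Adipoq start, 18 of 24 genes were tested, of which 2 were called (0.0226% of all tested genes were). The unadjusted mark was passed by 5 (8.62% of all), and 5 had knockout-labelled values wholly above the wild-type values (2.36% of all). Hrg, which was lower, is only among the former, and Dnajb11, at 0.12 ± 0.07, only among the latter. The median log2 change of the 18 was 0.14. The window was drawn with the called kininogens known to lie in it, so its shares describe the region and test nothing. Going towards Adipoq from the centromeric side, the fetuin genes Ahsg and Fetub stood at 0.00 ± 0.12 and 0.15 ± 0.12, and Hrg, for histidine-rich glycoprotein, at -0.24 ± 0.10. Relative to the Adipoq start, Kng2 starts at -117.1 kb and Kng1 at -88.7 kb. Eif4a2, for a translation initiation helicase, starts at -39.1 kb, and Rfc4, for a subunit of the replication clamp loader, at -18.8 kb. On the far side St6gal1, for a sialyltransferase, stood at -0.09 ± 0.19.

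Eif4a2 (chr16:23107444-23114136, plus strand) was at 294, 314, 316 and 319 CPM in wild-type and 451, 456, 464 and 393 CPM in knockout-labelled livers. The groups did not overlap and the wild-type values were close together, yet the log2 change of 0.51 ± 0.08 missed the threshold (edgeR adjusted p = 0.139). DESeq2 called the gene (DESeq2 adjusted p = 2.33e-06). The small nucleolar RNA gene Snora81, which lies inside Eif4a2, was added after its values were seen. It was at 0.894, 0.830, 1.53 and 0.904 CPM in wild-type and 2.11, 2.15, 1.73 and 1.94 CPM in knockout-labelled livers. Whether these reads are separate from those of Eif4a2 was not tested. Snord2, another such gene inside Eif4a2, stood at 0.34 ± 0.23 with overlapping groups. In adipocytes Eif4a2 had a log2 change of 0.70 ± 0.09 (edgeR adjusted p = 0.000597), and the tissue difference was -0.22 ± 0.12 (adjusted p = 0.226). Rfc4, which overlaps the end of Eif4a2 on the other strand, was at 0.04 ± 0.18. The strand setting of the authors' counting is not given, so reads in that overlap cannot be assigned to either gene.

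Adipoq itself was too low in liver to be tested. It had 10, 4, 90 and 2 counts in wild-type and 0, 0, 14 and 0 counts in knockout-labelled libraries. A library at 0 could hold up to 3 counts by counting error alone if counts were independent, which is 0.0613 to 0.105 CPM. Low counts here were mostly even, so the bound may be larger. Mouse WT-1138 also had the most counts of the fat cell genes Plin1 (30) and Cfd (280), and Cfd stood at -2.14 ± 1.13 over the groups (edgeR adjusted p = 0.639). Of 13 adipocyte markers, 6 were tested in liver, and Lep had 2 counts in mouse WT-1138 and 0 in the other libraries.

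**Figure D2:**
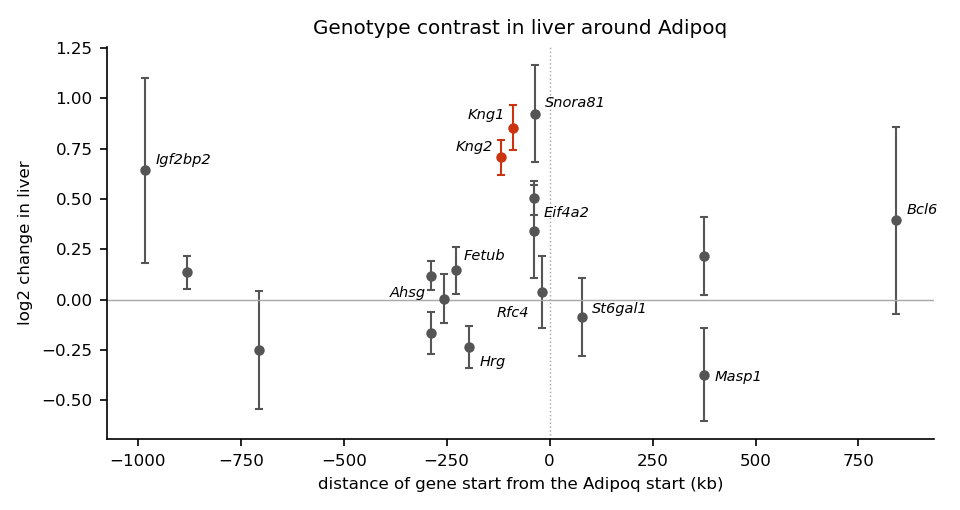
Log2 change in liver (knockout-labelled minus wild-type, with its SE) of the 18 tested genes against the distance in kb of each gene's start from that of Adipoq, drawn at 0. Red points are the 2 called genes, Kng2 and Kng1, which stand with Snora81 and Eif4a2 above their neighbours Ahsg, Hrg, Rfc4 and St6gal1. Further out Igf2bp2 stands at 0.64 ± 0.46, with an SE that is wide beside those of the red points.

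The 250 bases before the RefSeq start of Zfp949, Kng2 and Eif4a2 are shown, the first 2 as called genes and Eif4a2 as their neighbour near Adipoq. Kng1 was not matched. They are from RefSeq on GRCm38.p6, 5′ to 3′ in the direction of the gene, at chr9:88547770-88548019 (plus strand), chr16:23029102-23029351 (minus strand) and chr16:23107218-23107467 (plus strand). The RefSeq starts of Kng2 and Eif4a2 differ from the GENCODE gene positions given above. By those positions the Kng2 stretch lies inside Kng2, and the last bases of the Eif4a2 stretch lie inside Eif4a2. Capitals mark matches on either strand to a C/EBP motif, TTGCNNAA, which was searched because C/EBP-alpha is the factor controlled by Trib1.
Zfp949: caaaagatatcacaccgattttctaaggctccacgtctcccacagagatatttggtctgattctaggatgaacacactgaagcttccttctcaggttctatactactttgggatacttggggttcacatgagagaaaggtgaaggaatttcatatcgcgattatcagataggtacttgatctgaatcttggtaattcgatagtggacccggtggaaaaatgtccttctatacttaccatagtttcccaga
Kng2: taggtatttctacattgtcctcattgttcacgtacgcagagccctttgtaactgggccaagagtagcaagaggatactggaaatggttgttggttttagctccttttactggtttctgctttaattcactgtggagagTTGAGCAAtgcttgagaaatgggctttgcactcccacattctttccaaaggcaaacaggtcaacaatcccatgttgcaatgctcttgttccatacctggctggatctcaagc
Eif4a2: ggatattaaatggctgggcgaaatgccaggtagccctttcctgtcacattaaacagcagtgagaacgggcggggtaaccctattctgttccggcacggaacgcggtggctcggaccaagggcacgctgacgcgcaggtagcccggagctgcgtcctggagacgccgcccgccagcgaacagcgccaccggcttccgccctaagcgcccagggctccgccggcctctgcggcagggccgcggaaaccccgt
The Kng2 stretch holds 1 match, and the letters of the motif are not in the other 2 stretches. Of 32851 RefSeq stretches of this length, 9.56% hold at least 1 match, so the match in Kng2 is a description and no site.

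Behind the called genes stood 2 more higher genes and 5 lower genes. With them the 5 smallest p in each direction are complete, counting genes whose mean reached 1 CPM. None of these 7 passed the adjusted threshold in edgeR's main fit, while DESeq2 called all 7. Over all alternatives Adora1 was called in 4 and Elovl6 in 3. Ddhd2, Robo1 and 9130409I23Rik were called in 2 and Aox1 and Clcn2 in 1. Elovl6, the elongase that makes stearate from palmitate, was at 46.6, 42.7, 42.5 and 58.8 CPM in wild-type and 115, 92.9, 105 and 72.7 CPM in knockout-labelled livers, a log2 change of 1.02 ± 0.15 (edgeR adjusted p = 0.0989). Ddhd2, for a triglyceride and phospholipid lipase, was at 22.9, 20.3, 18.0 and 22.1 CPM against 37.5, 31.2, 32.8 and 31.5 CPM, a log2 change of 0.67 ± 0.10 (adjusted p = 0.0989 in the same edgeR fit). In both genes the groups did not overlap.

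Adora1, the adenosine A1 receptor gene, had the smallest p among the lower genes. It was at 28.6, 30.5, 25.8 and 18.7 CPM in wild-type and 14.3, 13.1, 9.37 and 9.52 CPM in knockout-labelled livers, with a log2 change of -1.16 ± 0.18 (edgeR adjusted p = 0.115). Within each group the 70-day mice held the lower Adora1 values, and at both ages the knockout-labelled values were below the wild-type ones. Aox1, for an aldehyde oxidase that acts on drugs and retinal, was at 108, 97.2, 118 and 112 CPM against 79.7, 55.3, 67.1 and 64.3 CPM, a log2 change of -0.71 ± 0.11 (edgeR adjusted p = 0.115). The chloride channel gene Clcn2 stood at -0.46 ± 0.08, the guidance receptor gene Robo1 at -1.46 ± 0.27, and 9130409I23Rik at -1.40 ± 0.26 (edgeR adjusted p = 0.211 for each). None of these 5 had overlapping groups.

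Of these genes, Ddhd2 and Adora1 differed between the tissues in the main fit, which does not pair the 2 libraries of a mouse. That test called 2845 of 14898 genes (19.1%). The Ddhd2 change was 0.17 ± 0.10 in adipocytes, and the liver change was higher by 0.48 ± 0.14 (edgeR adjusted p = 0.0292, and 0.0595 with the mouse as a block). The Adora1 change was 0.46 ± 0.15 in adipocytes and lower in liver by 1.65 ± 0.24 (edgeR adjusted p = 0.000369).

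**Figure D3:**
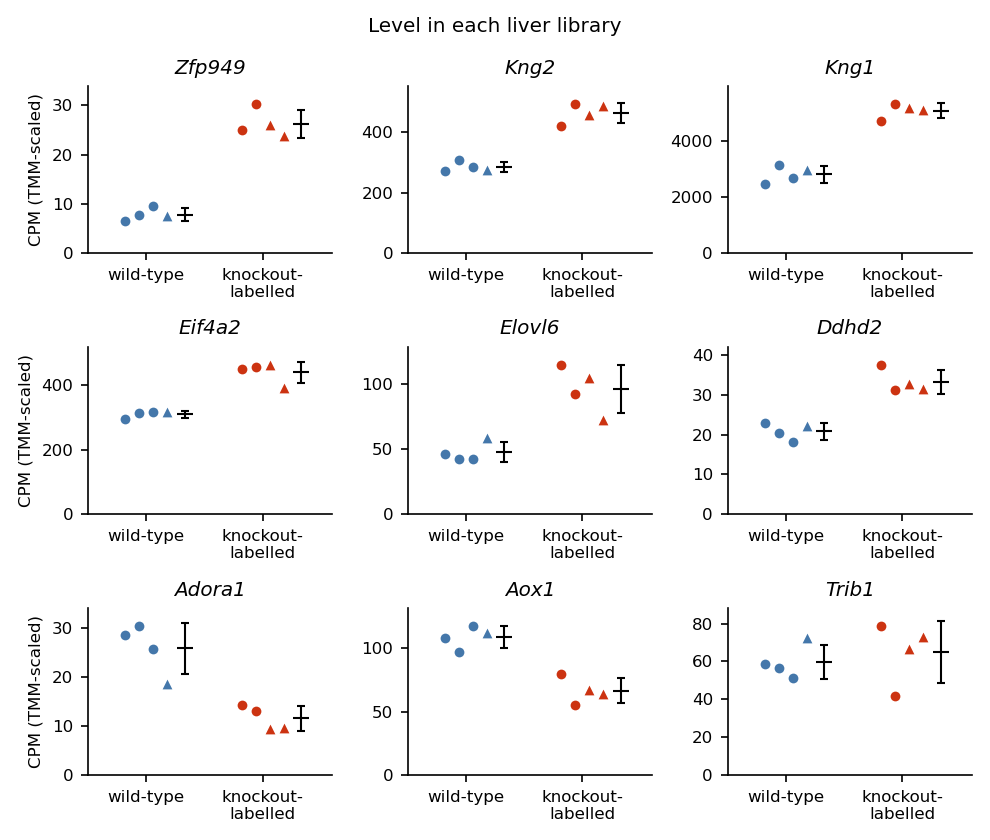
CPM (TMM-scaled) in each liver library for 9 genes, blue for wild-type and red for knockout-labelled mice, with circles for 76-day and triangles for 70-day mice. Black marks give the mean and SD of 4 mice, and the groups are apart for all genes shown except Trib1.

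The gene lists below are read against the unadjusted mark. In edgeR's main fit no pathway or cell type list had a called member except the complement and coagulation list. That list holds both kininogens, as does the list of Adipoq neighbours. Members past that mark are given by their values and carry no call in that fit. DESeq2 called some of them, such as Elovl6 and Acot1 as higher and Cd36 and Cyp8b1 as lower. For any list, the shares to compare are 4.02% higher and 4.61% lower among all tested genes, of which 6648 of 13288 had a log2 change above 0.

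Adiponectin acts in liver through its 2 receptors on AMP-activated kinase and on ceramide breakdown. Of 17 tested members of that list, 3 were past the mark on the higher side and 0 on the lower, with a median of 0.06. Adipor2 was at 389, 358, 292 and 359 CPM in wild-type and 525, 361, 502 and 407 CPM in knockout-labelled livers, with overlap and a log2 change of 0.36 ± 0.14 (edgeR adjusted p = 0.515). Adipor1 stood at -0.11 ± 0.08. The kinase kinase gene Camkk2 stood at 0.41 ± 0.14 and the ceramidase gene Acer3 at 0.25 ± 0.09. The count was 1 without mouse KO-1151 and 0 in 76-day mice alone.

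Fatty acid synthesis and desaturation had 25 tested members, 5 past the mark on the higher and 1 on the lower side, with a median of 0.16. Besides Elovl6 these were Acacb, for the carboxylase whose product restrains mitochondrial fatty acid entry, at 0.82 ± 0.16, the desaturase family gene Fads3 at 0.98 ± 0.23, Elovl5 at 0.42 ± 0.15 and Acaca at 0.39 ± 0.17. The exception was Srebf1, for the transcription factor SREBP-1 that drives this pathway, at 137, 118, 98.9 and 156 CPM in wild-type and 81.0, 101, 97.1 and 85.1 CPM in knockout-labelled livers, a log2 change of -0.49 ± 0.14. Fasn, for fatty acid synthase, was at 167, 120, 126 and 215 CPM against 180, 190, 301 and 191 CPM, with overlap and a log2 change of 0.46 ± 0.21 that missed the mark. So members of the list pointed both ways.

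Among 28 tested genes of triglyceride synthesis and lipid droplets, 3 were past the mark on the higher side and 0 on the lower, and the median was 0.00. The droplet coat gene Plin2 was at 282, 299, 201 and 297 CPM in wild-type and 556, 324, 405 and 429 CPM in knockout-labelled livers, without overlap and with a log2 change of 0.67 ± 0.17. G0s2, an inhibitor of triglyceride lipase, was at 20.4, 21.9, 57.0 and 55.1 CPM against 141, 129, 110 and 51.0 CPM, a log2 change of 1.47 ± 0.39 with mouse KO-1152 inside the wild-type range. The droplet fusion gene Cidec stood at 0.50 ± 0.19. The count past the mark was 8 without mouse KO-1152, 5 without mouse KO-1139 or with age as a covariate, and 6 in the fit of all 16 libraries.

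Fatty acid oxidation and targets of the fatty acid receptor PPAR-alpha made up one of the lists with most members past the mark, 12 higher and 2 lower of 50 tested. In all 40 of the 50 were above 0, with a median of 0.14. Acot1, for a cytosolic acyl-CoA thioesterase, was at 28.9, 29.8, 30.1 and 23.4 CPM in wild-type and 59.2, 61.8, 39.6 and 42.1 CPM in knockout-labelled livers, a log2 change of 0.85 ± 0.15 without overlap. Its mitochondrial relative Acot2 stood at 0.73 ± 0.21, and 11.2% of the 75-base stretches of Acot1 transcripts also occur in Acot2. The fatty acid hydroxylase genes Cyp4a31 and Cyp4a10 stood at 1.004 ± 0.22 and 0.75 ± 0.27, Angptl4, an inhibitor of lipoprotein lipase, at 0.43 ± 0.11, the acyl-CoA synthetase gene Acsl1 at 0.52 ± 0.17 and the fatty acid binding gene Fabp1 at 0.45 ± 0.19. The hormone gene Fgf21 was at 0.192, 1.06, 1.24 and 0.473 CPM against 3.88, 1.29, 1.23 and 1.07 CPM, so that mouse KO-1137 carried much of its log2 change of 1.31 ± 0.56. Cd36, for a fatty acid translocase, went the other way, at 40.8, 25.5, 54.6 and 27.5 CPM in wild-type and 14.5, 18.7, 16.7 and 10.97 CPM in knockout-labelled livers, a log2 change of -1.29 ± 0.24 without overlap.

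Cholesterol synthesis had 29 tested members, 4 past the mark on the higher and 1 on the lower side, with a median of 0.06. Hsd17b7 stood at 0.54 ± 0.11 without overlap between the groups, and the squalene epoxidase gene Sqle at 0.73 ± 0.20. Without mouse WT-1136 the members past the mark were 3 in all and the median was below 0, while without mouse KO-1152 or mouse WT-1153 they were 8. In the fit of all 16 libraries they were 3 and in 76-day mice alone 8. Sqle also lies near Trib1 and was the only 1 of 11 tested Trib1 neighbours on chromosome 15 past the mark. Of 16 sterol efflux genes 1 was past the mark on the higher and 2 on the lower side. Abcg8, which forms the canalicular sterol transporter with Abcg5, was at 158, 166, 165 and 157 CPM in wild-type and 100, 135, 126 and 138 CPM in knockout-labelled livers, a log2 change of -0.37 ± 0.10, and Abcg5 stood at -0.28 ± 0.12. The cholesterol ester hydrolase gene Nceh1 stood at 0.49 ± 0.17.

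For 40 tested genes of lipoprotein assembly, lipases and clearance the shares were closer to those of all genes, with 3 past the mark on the higher and 2 on the lower side and a median of 0.01. Sort1, for the sorting receptor sortilin, was at 22.2, 17.3, 11.8 and 14.8 CPM against 12.5, 9.13, 12.3 and 12.4 CPM, a log2 change of -0.51 ± 0.18. Apoa4 stood at 0.42 ± 0.16 and Apoa1 at 0.08 ± 0.13. In the fit of all 16 libraries 8 members in all were past the mark.

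Bile acid synthesis and transport leaned to lower values, with 2 members past the mark on the higher and 8 on the lower side of 30 tested and a median of -0.12. Cyp7a1, the rate-limiting enzyme of bile acid synthesis, was at 559, 334, 535 and 285 CPM in wild-type and 75.3, 422, 177 and 158 CPM in knockout-labelled livers. Mouse KO-1139 lay inside the wild-type range, and the log2 change was -1.04 ± 0.43. Cyp8b1, which sets the share of cholic acid, was at 570, 424, 472 and 443 CPM against 202, 396, 266 and 231 CPM, a log2 change of -0.80 ± 0.19 without overlap. The pathway enzymes Hsd3b7 and Akr1d1 stood at -0.36 ± 0.11 and -0.44 ± 0.15, and the bile acid ligase gene Slc27a5 at -0.25 ± 0.09. On the higher side stood Cyp2c70, which makes the muricholic acids of mice, at 0.51 ± 0.13 and the uptake transporter gene Slco1a1 at 0.40 ± 0.11. In 76-day mice alone 6 members in all were past the mark.

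Urea cycle and amino acid catabolism was the pathway list with the largest share below 0, 43 of 47 tested members. Past the mark were 14 on the lower and 1 on the higher side, with a median of -0.23. The mitochondrial aminotransferase gene Agxt2 was at 191, 186, 189 and 156 CPM in wild-type and 127, 154, 122 and 132 CPM in knockout-labelled livers, a log2 change of -0.43 ± 0.10 without overlap. Prodh, for proline oxidation, stood at -0.45 ± 0.12, the tryptophan dioxygenase gene Tdo2 at -0.41 ± 0.16 and the betaine methyltransferase gene Bhmt at -0.52 ± 0.23, and Bckdhb, of branched-chain oxidation, at 0.29 ± 0.08. Asns, for asparagine synthesis, was at 5.20, 26.8, 5.15 and 3.23 CPM against 2.62, 2.64, 1.27 and 4.27 CPM, so mouse WT-1136 set much of its log2 change of -1.89 ± 0.63. The count past the mark was 8 without mouse WT-1136, 8 without mouse KO-1137 and 6 without mouse KO-1151, and it was 7 with age as a covariate. In each of these the median stayed below 0.

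Conjugation, transport and NRF2 targets had 15 of 53 tested members past the mark on the lower and 1 on the higher side, with a median of -0.12. The glutathione transferase gene Gsta2 was at 39.4, 51.7, 55.4 and 43.2 CPM in wild-type and 34.2, 15.8, 24.1 and 14.4 CPM in knockout-labelled livers, a log2 change of -1.10 ± 0.24 without overlap. Gsta1 stood at -2.03 ± 0.49 with a mean of 3.09 CPM in wild-type livers, and 33.8% of its 75-base stretches also occur in Gsta2, so the pair is uncertain. The epoxide hydrolase gene Ephx1 stood at -0.36 ± 0.09 without overlap. Without mouse WT-1135 the members past the mark were 8 in all, without mouse KO-1137 they were 10, with age as a covariate or in the fit of all 16 libraries 10 and in 76-day mice alone 9.

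Cytochromes P450 of families 1 to 3, which oxidise drugs and steroids, went both ways. Of 45 tested, 5 were past the mark on the higher and 7 on the lower side, with a median of -0.12. Cyp2a5, a coumarin hydroxylase, was at 1952, 1162, 1974 and 1183 CPM in wild-type and 706, 989, 726 and 571 CPM in knockout-labelled livers, a log2 change of -1.07 ± 0.22 without overlap. Of its 75-base stretches 15.7% also occur in Cyp2a4. Cyp3a11, the main drug-induced member of family 3, stood at -0.37 ± 0.12 and Cyp2g1 at -0.91 ± 0.18. Cyp2c40 was at 8.27, 4.71, 5.99 and 5.77 CPM against 36.7, 11.9, 9.17 and 16.5 CPM and Cyp2c69 stood at 1.90 ± 0.50. Mouse KO-1137 was the highest for both Cyp2c40 and Cyp2c69.

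Growth hormone pulses make many liver genes differ between the sexes, and all 8 mice were male. Of 31 tested male-biased genes 3 were past the mark on the higher and 0 on the lower side, with a median of 0.20, among them Serpine2 at 0.39 ± 0.11. That count was 7 without mouse WT-1136 and 5 without mouse KO-1139 or mouse WT-1153. Of 22 tested female-biased genes 2 were past it on the higher and 4 on the lower side, with a median of -0.28. Among them were Cyp2c69 on the higher side, at 1.90 ± 0.50, and Atp6v0d2, at -1.38 ± 0.33, and Cd36 on the lower side. Without mouse WT-1138 the female-biased median was 0.01. Among 29 genes of insulin and growth hormone signalling 2 were past the mark on the higher side and 0 on the lower, Igfbp2 at 0.43 ± 0.15 and the leptin receptor gene Lepr at 1.26 ± 0.48. It was 0 without mouse KO-1151 and 4 without mouse KO-1152 or mouse WT-1135. The list of 24 clock genes had 0 members past the mark in either direction, 3 without mouse KO-1152 and 2 without mouse WT-1153 or in 76-day mice alone.

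**Figure D4:**
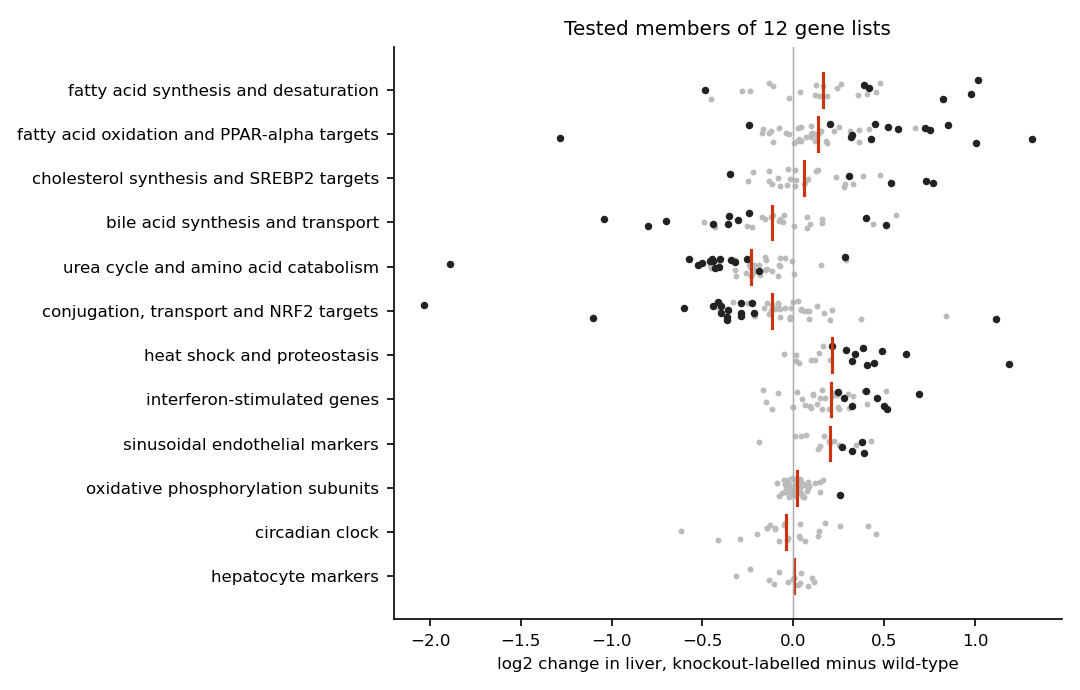
Log2 change in liver (knockout-labelled minus wild-type, x axis) of each tested member of 12 gene lists (y axis), dark where edgeR's unadjusted p was under 0.05, with a red bar at the list's median. Heat shock genes lie above 0 but for 1, amino acid catabolism genes mostly below 0, and oxidative phosphorylation genes between -0.09 and 0.26, while clock genes spread from -0.62 to 0.45 with none dark.

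Heat shock genes, which encode chaperones that refold proteins, had the largest share past the mark of the pathway lists. Of 19 tested members 10 were past it on the higher and 0 on the lower side, 18 were above 0, and the median was 0.21. Hspa8, the constitutive Hsp70, was at 631, 741, 804 and 723 CPM in wild-type and 1132, 900, 1043 and 870 CPM in knockout-labelled livers, a log2 change of 0.44 ± 0.11 without overlap. The inducible Hspa1b was at 2.55, 2.32, 2.83 and 4.50 CPM against 9.67, 4.65, 8.38 and 5.46 CPM, a log2 change of 1.19 ± 0.27, and 55.8% of its 75-base stretches also occur in Hspa1a. Hsp90aa1 stood at 0.41 ± 0.12, its cochaperone gene Chordc1 at 0.38 ± 0.09 and Hsph1 at 0.62 ± 0.16. Without mouse KO-1137, the highest library for Hspa8, Hsp90aa1 and Hsph1, the members past the mark were 6, as they were in 76-day mice alone.

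Of 34 tested genes of the unfolded protein and integrated stress responses, 5 were past the mark on the higher and 2 on the lower side, with a median of 0.04. The higher ones included 4 genes of the endoplasmic reticulum, Creld2 at 0.63 ± 0.16, the chaperones Hyou1 at 0.55 ± 0.13 and Hspa5 at 0.33 ± 0.11, and the secreted factor Manf at 0.44 ± 0.13. Creld2 was at 14.5, 23.8, 21.2 and 18.4 CPM in wild-type and 30.4, 29.4, 36.6 and 24.4 CPM in knockout-labelled livers, so the groups just did not overlap. The fifth was Atf3, a stress-induced transcription factor gene, at 1.115 ± 0.40 with at most 1.98 CPM in any library. The 2 lower ones were Asns and Chac1, the latter at -0.61 ± 0.20. Without mouse KO-1152 the members past the mark were 12.

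Of these 4 reticulum genes, Creld2 and Hspa5 were matched to a RefSeq stretch, and both stretches hold the same element. That of Creld2 is shown. The 250 bases before its RefSeq start lie at chr15:88819396-88819645 (GRCm38.p6, plus strand), and capitals mark a match on the reverse strand to the ER stress element, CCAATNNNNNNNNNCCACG.
Creld2: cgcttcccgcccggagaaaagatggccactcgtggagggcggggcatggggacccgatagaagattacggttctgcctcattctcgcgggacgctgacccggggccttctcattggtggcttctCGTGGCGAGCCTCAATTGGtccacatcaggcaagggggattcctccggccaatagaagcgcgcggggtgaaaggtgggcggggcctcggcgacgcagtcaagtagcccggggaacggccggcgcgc
This element was found in 8 of the 31 listed genes with a RefSeq stretch (25.8%), Creld2 and Hspa5 among them, and in 0.113% of all stretches. The other carriers, Calr, Canx, Derl3, Dnajc3, Hsp90b1 and Pdia6, were not past the mark. The element is a known feature of this family and describes the sequence, not its use in these livers.

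Interferon-stimulated genes, which serve antiviral defence, had 8 of 38 tested members past the mark on the higher and 0 on the lower side. In all 32 were above 0, with a median of 0.21. Oasl2 was at 4.88, 3.62, 5.12 and 5.81 CPM in wild-type and 7.32, 6.86, 7.17 and 6.57 CPM in knockout-labelled livers, a log2 change of 0.52 ± 0.15 without overlap, and the transcription factor genes Stat2 and Irf9 stood at 0.28 ± 0.11 and 0.24 ± 0.10. The count was 2 without mouse WT-1136, without mouse WT-1138 or without mouse KO-1139, 3 without mouse KO-1152, 4 without mouse KO-1137, 5 without mouse WT-1135, 5 with age as a covariate, 3 in the fit of all 16 libraries and 14 in 76-day mice alone. Of 17 antigen presentation genes 3 were past the mark on the higher and 0 on the lower side, with H2-Ab1 at 0.56 ± 0.23 and Cd74 at 0.45 ± 0.20. That count was 0 without mouse KO-1137, mouse KO-1152 or mouse WT-1135 and in the fit of all 16 libraries, 1 with age as a covariate or in 76-day mice alone, and 5 without mouse KO-1139. The chemokine genes Cxcl9 and Cxcl10 stood at 0.52 ± 0.23 and 0.68 ± 0.24.

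Summed markers of other cell types overlapped between the groups in every list but that of red cells, and the stellate, cholangiocyte, B cell and neutrophil lists had 0 members past the mark. The 17 sinusoidal endothelial markers summed to 337, 295, 383 and 372 CPM in wild-type and 373, 410, 418 and 403 CPM in knockout-labelled livers, 16 of the 17 were above 0 with a median of 0.20, and 4 were past the mark on the higher and 0 on the lower side. Gpr182 stood at 0.39 ± 0.09 and Stab1 at 0.32 ± 0.13. Without mouse WT-1136, mouse KO-1139 or mouse KO-1151 that count was 1, and without mouse WT-1138 it was 7. It was 2 with age as a covariate or in 76-day mice alone, and 0 in the fit of all 16 libraries. The 20 macrophage markers summed to 437, 440, 572 and 436 CPM against 543, 427, 476 and 453 CPM, with a median of 0.12. T and NK cell markers summed to 6.52 to 12.2 CPM in wild-type and 7.98 to 13.2 CPM in knockout-labelled livers, and neutrophil markers to 6.23 to 32.0 and 14.8 to 32.9 CPM. Mouse WT-1135 and WT-1136 held the 2 lowest sums for T and NK cells, neutrophils and B cells. The part of these cells in the interferon and antigen presentation values was not tested. Red cell markers summed to 93.6 to 144 CPM in wild-type and 76.5 to 91.6 CPM in knockout-labelled livers, nearly all from Alas2 at -0.46 ± 0.14, and 4 of the 7 were at 0 in every library.

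Most of the remaining lists had small shares past the mark, and the zonation lists at the end had larger ones. Of 50 oxidative phosphorylation subunits 1, the cytochrome c gene Cycs at 0.26 ± 0.09, was past the mark, and of 49 cytosolic ribosomal protein genes 0 were. Without mouse WT-1153 both counts were 3. Of 32 acute phase genes 1 was past it on the higher and 2 on the lower side. The latter were the hepcidin genes, whose product limits iron export. Hamp was at 986, 1135.5, 1361 and 1096 CPM in wild-type and 873, 1017, 308 and 471 CPM in knockout-labelled livers, so both 70-day knockout-labelled mice were low and the log2 change was -0.78 ± 0.31. Hamp2 stood at -0.95 ± 0.30. The acute phase count was 5 without mouse WT-1136 and 1 without mouse WT-1138. Of 32 gluconeogenesis and glycogen genes 2 were past the mark in each direction, with the liver glycogen synthase gene Gys2 at 0.38 ± 0.11. Their count was 7 without mouse WT-1135 and 2 without mouse KO-1137, in 76-day mice alone or in the fit of all 16 libraries. Of 32 matrix genes and 36 cell cycle genes 1 and 2 were past it, including Ccnd1 at 0.59 ± 0.20. Pericentral hepatocyte genes had 0 of 24 on the higher and 4 on the lower side, with Aldh1a1 at -0.63 ± 0.24 and Lgr5 at -0.60 ± 0.24, and periportal genes 2 and 4 of 21. The pericentral count was 8 without mouse WT-1136, 1 without mouse WT-1138 or in 76-day mice alone, and 2 without mouse WT-1135, mouse KO-1151 or mouse KO-1152. The periportal count of 6 was 2 without mouse WT-1136, without mouse KO-1151 or with age as a covariate, and 3 without mouse WT-1135, mouse KO-1137 or mouse KO-1152 or in 76-day mice alone.

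**Figure D5:**
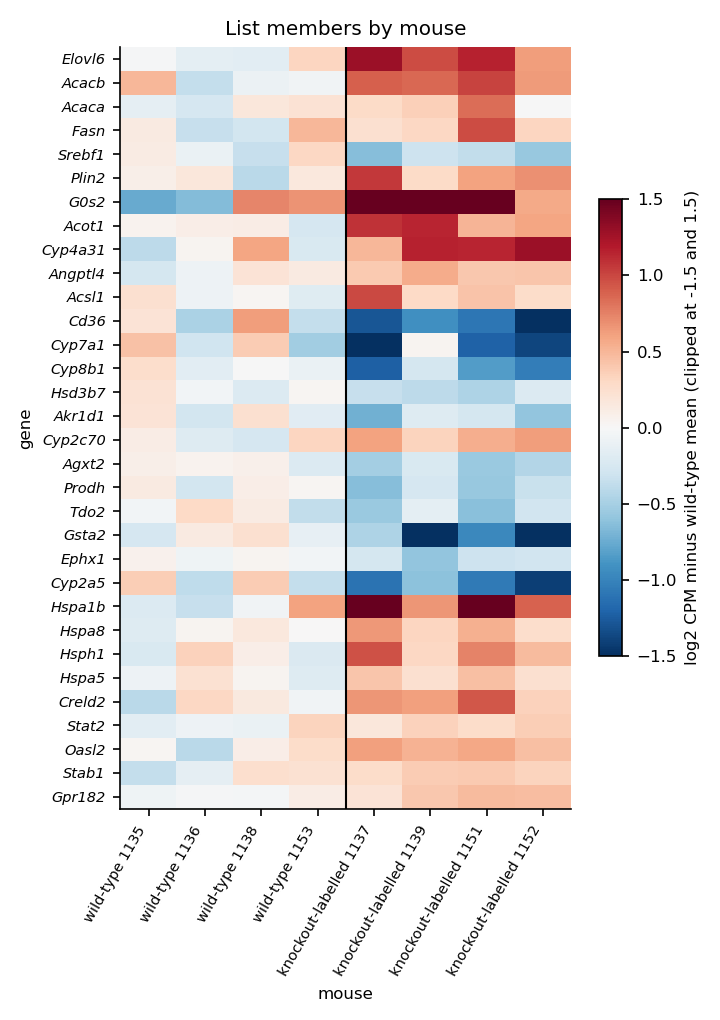
Log2 CPM of 32 list members (rows) in each liver library (columns, by group and mouse) minus the mean of the 4 wild-type libraries, from blue for lower to red for higher. All rows but Fasn had an edgeR unadjusted p under 0.05 in this same contrast, so their colours follow from how they were picked. In knockout-labelled mice the rows of lipid oxidation and heat shock are mostly red. Those of bile acids, amino acids and conjugation are mostly blue. Exceptions include Cyp7a1 in mouse KO-1139 and Acaca in mouse KO-1152.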

How the data were processed

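Polyadenylated RNA of 8 livers, with RNA integrity numbers above 9, was sequenced from TruSeq libraries on a NextSeq instrument, per the labels' protocols. The submitters' processing notes name bcl2fastq 2.17, STAR 2.5.2b, featureCounts 1.5.0 and mm10. Which annotation was used is not given in the sources used here, nor are the strand setting and the handling of multiply mapped reads. Each deposited file holds the raw, unnormalized counts of 1 library, by gene symbol.

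Knockout-labelled and wild-type livers were compared with edgeR 4.0.16 in R 4.3.3 (quasi-likelihood test, two-sided, TMM scaling, filterByExpr, Benjamini-Hochberg adjusted p under 0.05). A model over all 16 libraries tested the difference between tissues. SE is the log2 change divided by the square root of F. TMM factors were 0.970 to 1.03. Alternatives used DESeq2 1.42.0, limma 3.58.1, other scalings, no filter, halved counts, age, 1 age only and leaving out each library. Of counts from 1 to 20, 78.1% were even, so low counts are not independent molecules. The chi-square per degree of freedom between libraries of a group was 31.9 or more, so no pair agreed within counting noise.

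The 8 libraries and the 45 gene lists (33 pathway, 12 marker) were chosen with earlier results of these data known. Genes named were Trib1, the adiponectin receptors and the Adipoq neighbours, up to 15 called genes a direction (mean 1 CPM or more, groups apart), or the top 5 by p in a direction with fewer calls, and from each list the 3 members lowest in p at most. The rule gave 96 genes, not all described in the text, and 24 more were added after their values were seen, such as Srebf1, Fasn, Cyp7a1, Asns and Hspa5. Symbols were placed with GENCODE M21 (GRCm38), 23009 of 23420 of them, 1272 through an older symbol. Per the labels, libraries that share a number are of 1 mouse. Across genes, the liver and adipocyte deviations of a mouse from its group means had Pearson correlations of -0.0918 to 0.142. A few genes of these lists are not reported here.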

Additional observations from a re-analysis of the deposited data

Results flagged for a closer look

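In 240 groups of 4 libraries (120 named genes in 2 genotype groups), 18 had a highest or lowest value set far apart from the other 3, by Dixon's ratio of the gap to the range at the 95% level. Chance alone passes about 5% of groups. In knockout-labelled livers the ratio was 0.936 for Sort1 (lowest in mouse KO-1139), 0.882 for Angptl4 (highest in KO-1139), 0.953 for Fosl2, 0.893 for Cxcl10 and 0.920 for Fgf21 (each highest in KO-1137), 0.875 for Slc40a1 (highest in KO-1139) and 0.914 for Fasn (highest in KO-1151). In wild-type livers it was 0.832 for Plin2 (lowest in WT-1138), 0.851 for Agxt2 (lowest in WT-1153), 0.866 for H2-Ab1 (lowest in WT-1135), 0.916 for Asns and 0.965 for Elovl5 (highest in WT-1136) and 0.895 for Snora81 (highest in WT-1138). It was 0.869 for Sqle, 0.839 for Ifitm3, 0.872 for Stat2 and 0.861 for Fabp1 (each highest in WT-1153) and 0.881 for Nceh1 (highest in WT-1135).

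Of the genes named by position or rank, 4 had a genotype effect that differed between liver and adipocytes by edgeR's test of the difference. That test called 2845 of all 14898 genes tested (19.1%), so such calls were common. The liver effect minus the adipocyte effect was -4.57 for Kng2, -1.72 for Fetub, 0.48 for Ddhd2 and -1.65 for Adora1 on the log2 scale. With the mouse as a block Ddhd2 lost its call. Fetub, a fetuin gene near Adipoq, stood at 0.15 ± 0.12 in liver and 1.86 ± 0.37 in adipocytes. In adipocytes it was at 0.155, 0.0969, 0.155 and 0.195 CPM in wild-type and 0.413, 0.498, 0.791 and 0.519 CPM in knockout-labelled libraries. Its adipocyte change and the tissue difference thus rest on low counts.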

How the results depend on the processing

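The 3 calls, all higher, became 102 with DESeq2 (55 higher, 47 lower), 5 without the filter (1 lower), 4 with age as a covariate (1 lower) or in the fit of all 16 libraries (1 lower) and 0 in 76-day mice. Leaving out 1 library gave 1 to 3 calls, with 1 to 3 higher and 0 to 1 lower. The other scalings and limma-voom kept the same 3 genes, and halved counts lost Kng1. Zfp949 was called in 16 of 17 alternatives, Kng2 in 7 and Kng1 in 6. Genes past the unadjusted mark were 766 to 1524 over the leave-outs. Of 120 named genes 119 kept their direction in liver in every alternative that held them. Rfc4 turned, at -0.081 in 76-day mice and at -0.0539 to 0.139 over the leave-outs. Of the tissue differences, library totals turned Trib1 (0.041), Adipor2 (0.11), Eif4a2 (0.015), Clcn2 (0.023) and Robo1 (0.043), and limma-voom turned Robo1 (0.12). Over left-out mice, differences turned for Kng1 (-1.59 to 2.29), Zfp949 (-0.00682 to 0.221), Elovl6 (-0.0586 to 0.705) and Robo1 (-0.577 to 0.451). The cause of these changes was not tested. Genes with a tissue difference were 1758 to 2988 over the leave-outs, the fewest without WT-1135, KO-1139 or KO-1151. With the mouse as a replicate block they were 2245 instead of 2845, and of the genes named by rank or position only Ddhd2 lost its call. The liver contrast alone could not be blocked, since each mouse has 1 liver library. Low counts, mostly even, limit what can be said of genes near 0.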
